A study of Mus musculus with 40 samples.

Results

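The genes described here are the mouse unfolded protein response and the machinery that brings secreted proteins into the endoplasmic reticulum (ER), folds them, degrades those that fail and ships the rest. They were chosen by gene symbol from a list of 50 and each gene was read from its probe set of highest mean signal. The rule itself uses no difference between groups. Of the 50, 49 were measured among 17097 genes. The fiftieth, Sec61g, was not analysed here. By role, 6 are sensors and transcription factors of the response, 9 chaperones and co-chaperones, 6 oxidoreductases and a proline isomerase, 3 lectin folding genes, 9 genes of ER-associated degradation, 11 genes of translocation and signal cleavage and 5 genes of export from the ER.

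The unfolded protein response is the set of pathways by which a cell matches its ER to the load of proteins that enter it. The membrane sensors IRE1 (gene Ern1), PERK (gene Eif2ak3) and ATF6 (gene Atf6) detect unfolded proteins. IRE1 splices the messenger RNA of the factor XBP1, PERK slows translation and favours ATF4, and ATF6 is cut to release a transcription factor. Plasma cells, which secrete antibody in bulk, depend on XBP1 and carry an expanded secretory apparatus.

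The 40 arrays measured total RNA of J558LuM, a mouse plasmacytoma line, that is, a tumour line of plasma cells. Groups were the empty vector MIR, wild-type PAX5 (PAX5-WT), PAX5-G183S and PAX5-G183V, with 7 arrays each, and PAX5-P80R and PAX5-Δ2-6, with 6 arrays each. PAX5 is the transcription factor that keeps B cell identity and is silenced when B cells become plasma cells. G183S and G183V alter its octapeptide motif, P80R alters its paired DNA-binding domain, and the last construct is named in the labels only as PAX5-Δ2-6. Every group shares the line and a transduction, and each array had a transduction number of its own, and replicate spread here is that between transductions of 1 line.

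The labels also give 2 plates and 2 RNA isolation batches. Plate 2 carried every PAX5-P80R and PAX5-Δ2-6 array and 3 arrays of each other group, whose remaining 4 were on plate 1. By transduction number, all MIR and PAX5-WT arrays and 6 of 7 PAX5-G183S arrays came from the series 34 to 44 and 58 to 66. All other arrays came from 1 to 9 and 45 to 57. Any comparison that sets MIR or PAX5-WT against PAX5-G183V, PAX5-P80R or PAX5-Δ2-6 therefore crosses number series. For genes described in such comparisons, values given in pairs after a change are those within the first and the second isolation batch. Within each batch these groups still come from different number series, so the pairs cannot tell construct from series. In bulk RNA of this kind, fewer cells of a type and less RNA per cell cannot be told apart. Plasma cell markers averaged 10.28 to 10.99 over the arrays on the log2 scale, with 6 of 10 measured, against 3.53 to 3.79 for fibroblast, 3.72 to 4.09 for myeloid, 3.98 to 4.34 for erythroid and 4.81 to 5.11 for T cell markers. The arrays' own medians lay between 4.21 and 4.27.

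The promoters of the chaperone genes carry a known sequence, the ER stress response element (ERSE), through which ATF6 and XBP1 act. A search on both strands for its letters, CCAAT and CCACG with 9 free bases between them, covered the RefSeq promoter windows of GRCm38.p6, from 250 bases before to 50 bases after each start. It found the element in 8 of the 42 listed genes that have a window, or 19.0%, and in 37 of 27025 genes in all, or 0.137%. The 42 are 41 measured members and Sec61g. The second element, ERSE-II (ATTGG and CCACG with 1 free base between them), was in 2 of 42 members and in 0.0444% of all genes. The core of the XBP1 element (TGACGTGG) was in 1 of 42 members and in 0.714% of all genes. The sites below are those of the chaperones Hspa5 and Hsp90b1, whose level did not pass any test here, and of 4 members of other roles. Each is read 5′ to 3′ on the stated strand, with the motif in capitals and 10 bases on each side.
Hspa5 ERSE, chr2:34772015-34772053, plus strand: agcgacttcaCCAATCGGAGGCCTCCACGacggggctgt
Hsp90b1 ERSE, chr10:86705523-86705561, plus strand: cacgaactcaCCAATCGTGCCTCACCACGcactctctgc
Hsp90b1 ERSE, chr10:86705628-86705666, minus strand: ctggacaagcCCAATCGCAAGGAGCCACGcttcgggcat
Pdia6 ERSE, chr12:17266481-17266519, plus strand: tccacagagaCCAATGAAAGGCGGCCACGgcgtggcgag
Syvn1 ERSE, chr19:6046522-6046560, plus strand: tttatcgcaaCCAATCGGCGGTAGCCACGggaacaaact
Herpud1 ERSE-II, chr8:94386367-94386397, plus strand: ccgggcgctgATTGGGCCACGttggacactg
Sec24d XBP1 element core, chr3:123267460-123267487, plus strand: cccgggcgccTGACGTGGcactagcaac

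The other members with an ERSE were Dnajc3, Creld2, Calr and Canx, and Dnajb11 had the other ERSE-II. A match describes these letters and is not evidence of binding. A window without these letters is not evidence that the gene lacks such an element. Of the 10 members with either element, 0 passed the limma test in PAX5-WT, PAX5-G183V or PAX5-P80R against MIR. In PAX5-G183S 2 of the 10 were lower, Dnajb11 at -0.15 and Creld2 at -0.14. Of the 31 members with a window and neither element, 5 were lower in PAX5-WT, 4 lower and 1 higher in PAX5-G183S, 8 lower and 2 higher in PAX5-G183V, and 2 lower and 2 higher in PAX5-P80R. The 8 members without a window could not be searched. Of these 1 was higher in PAX5-WT, 1 in PAX5-G183S, 2 in PAX5-G183V and 2 in PAX5-P80R, and 0 were lower. Of all genes 6.43%, 6.12%, 9.28% and 4.72% were called in these 4 comparisons, in that order. The difference between the sets was not tested.

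Across the whole list the constructs moved single members by small amounts, and not the list as a block. A gene was called at a limma adjusted p under 0.05 over all genes. In PAX5-WT against MIR 6 of 49 members were called, or 12.2%, where 6.43% of all genes were called. Of the members 1 was higher and 5 were lower, beside 3.59% and 2.84% of all genes. In PAX5-G183S 8 were called, 2 higher and 6 lower, beside 6.12% of all genes (3.69% higher and 2.43% lower). In PAX5-G183V 12 were called, 4 higher and 8 lower, which is 24.5% of members beside 9.28% of all genes (5.63% higher and 3.64% lower). In PAX5-P80R 6 were called, 4 higher and 2 lower, beside 4.72% of all genes (2.25% higher and 2.47% lower). In PAX5-Δ2-6 0 were called, with 3 at an unadjusted p under 0.05, and 0% of all genes were called. These comparisons share the 7 MIR arrays. The median change of the members lay between -0.02 and 0.01 in the 5 comparisons, and that of all genes between 0.00 and 0.01. No called member changed by 1.5-fold or more. Of the 49 members 48 had a mean signal at or above the median of all genes, 4.77. The shares of all genes include the dimmer genes, and shares among genes as bright as the members are not given.

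The counts rest in part on single arrays. Except within the isolation batches, shares of all genes under the settings below are not given. Under those settings a moved member count cannot be told from a move over all genes. The PAX5-G183S count fell from 8 to 5 without MIR replicate 6, PAX5-G183S replicate 1 or PAX5-G183S replicate 4. With arrays centred on their medians the PAX5-WT count was 1 higher and 10 lower, the PAX5-G183S count 1 higher and 7 lower, and the PAX5-P80R count 4 higher and 1 lower, as it was with quantile normalization applied again. When the 4 number series replaced isolation batch as a term, 0 members were called in PAX5-G183V and in PAX5-P80R against MIR, with 10 and 5 at an unadjusted p under 0.05. With only the MIR and PAX5-P80R arrays in the limma fit, 0 members were called, with 10 at an unadjusted p under 0.05. With 3 number series, which join 45 to 57 and 58 to 66, the PAX5-P80R split turned to 2 higher and 5 lower and the PAX5-G183V split was 6 higher and 12 lower. In the isolation batches alone, PAX5-P80R against MIR gave 1 higher and 0 lower in the first and 1 higher and 3 lower in the second. Of all genes 0.912% and 3.94% were called there. PAX5-G183V gave 2 higher and 0 lower, then 2 higher and 5 lower, beside 1.77% and 8.17% of all genes. In the fit with 4 number series these groups are tied to MIR only through the 1 PAX5-G183S array of transductions 45 to 57.

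**Figure D1:**
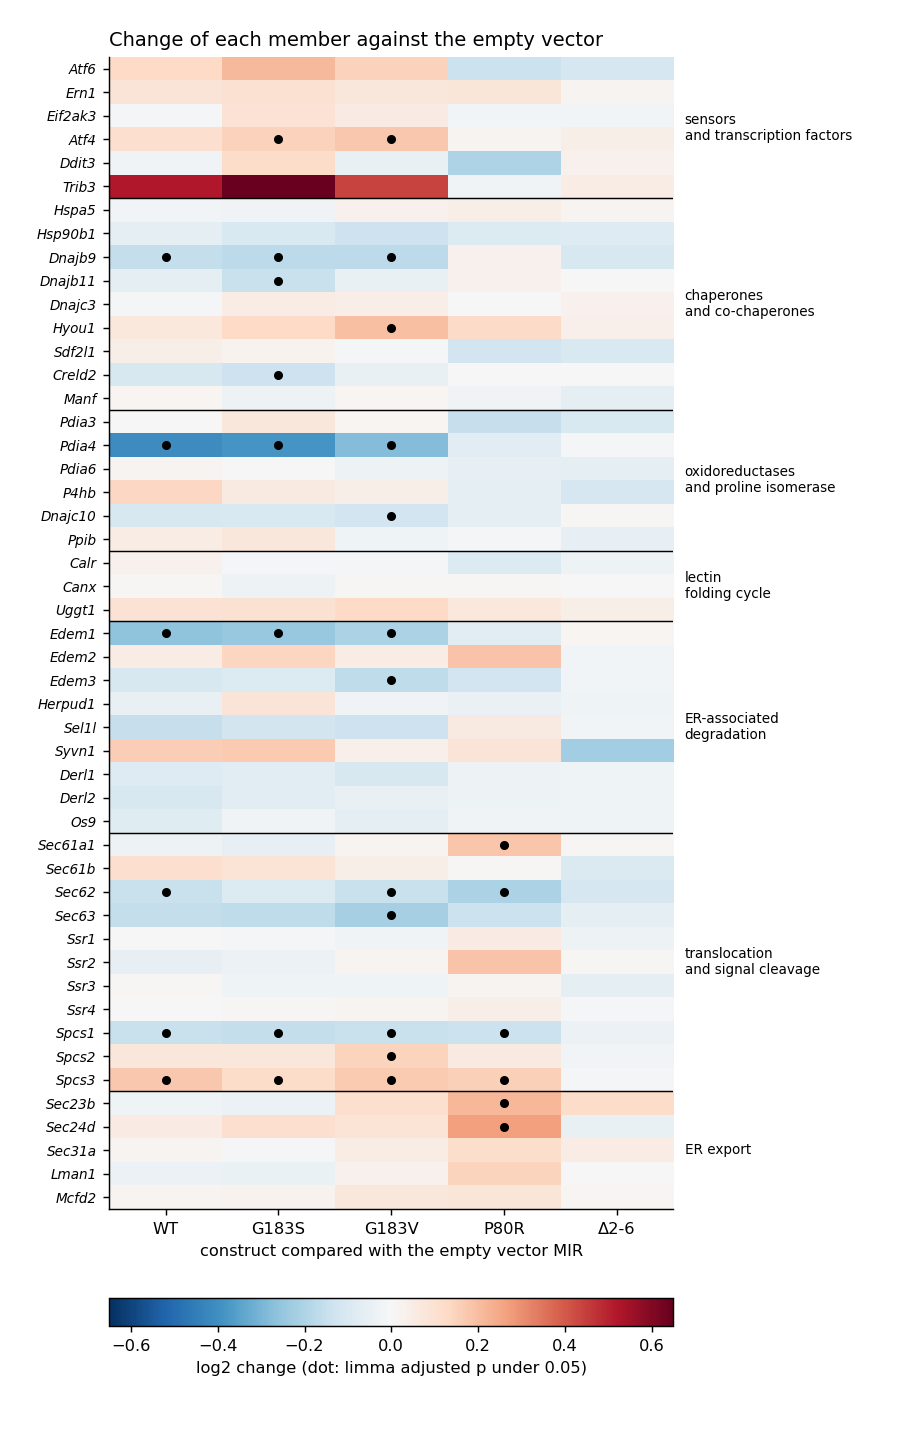
Change of each of the 49 members against the empty vector, by role, for the 5 constructs. Colour gives the limma estimate on the log2 scale and a dot marks an adjusted p under 0.05. Pdia4 has the largest fall of the members in PAX5-WT, PAX5-G183S and PAX5-G183V, at -0.41, -0.38 and -0.28, and the PAX5-Δ2-6 column has no dot.

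The member that fell most was Pdia4, a disulfide isomerase of the ER that works with the chaperone BiP. Its MIR arrays ran from 10.86 through a median of 11.03 to 11.16 on the log2 scale. PAX5-WT ran from 10.41 through 10.66 to 10.76, and PAX5-G183S from 10.59 through 10.64 to 10.71. Every array of those constructs lay below every MIR array. The fall was -0.41 ± 0.06 in PAX5-WT (SE, n = 7 and 7, limma adjusted p = 1.83e-06) and -0.38 in PAX5-G183S (limma adjusted p = 8.72e-06). Pdia4 was the only member called within each isolation batch in PAX5-G183S, at -0.41 in the first and -0.36 in the second. In PAX5-G183V it ran from 10.50 through 10.72 to 10.92, which overlaps MIR at the edge, and the change was -0.28 (limma adjusted p = 0.000649), with -0.16 in the first isolation batch and -0.38 in the second. PAX5-P80R, from 10.84 through 10.88 to 11.09, gave -0.07, and PAX5-Δ2-6, from 10.84 through 10.98 to 11.10, gave -0.01. Neither passed the test, and both groups overlap MIR.

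Edem1, which draws misfolded glycoproteins out of the folding cycle for degradation, had the same order. Its MIR arrays spanned 12.17, 12.23 and 12.34 (lowest, median, highest). PAX5-WT spanned 11.92, 11.97 and 12.10, PAX5-G183S 11.87, 12.04 and 12.18, and PAX5-G183V 11.96, 12.06 and 12.14. PAX5-WT and PAX5-G183V lay wholly below MIR. The changes were -0.26 (limma adjusted p = 2.95e-05), -0.24 (limma adjusted p = 0.000104) and -0.21 (limma adjusted p = 0.000801). In PAX5-G183V they were -0.17 and -0.22 in the 2 isolation batches. A second probe set of Edem1 gave larger falls of -0.48, -0.40 and -0.43, each called over all probe sets. PAX5-Δ2-6 spanned 12.22, 12.23 and 12.31, a change of 0.01 against MIR, and PAX5-P80R spanned 12.09, 12.13 and 12.28, a change of -0.07. Of the related mannosidase-like genes, Edem2 was not called against MIR in any construct, and Edem3 fell by 0.17 in PAX5-G183V (limma adjusted p = 0.00400; -0.12 and -0.20 in the 2 isolation batches). Edem3 was named after its values were seen.

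The signal peptidase, which cuts the leader off proteins as they enter the ER, moved in opposite directions within 1 complex. Its small subunit Spcs1 had MIR arrays at 12.57, 12.60 and 12.69 (lowest, median, highest), PAX5-WT arrays at 12.41, 12.47 and 12.52 and PAX5-G183S arrays at 12.34, 12.47 and 12.55. Neither construct overlaps MIR. Spcs1 fell by 0.15 in PAX5-WT (limma adjusted p = 0.0125), by 0.15 in PAX5-G183S (limma adjusted p = 0.00762) and by 0.14 in PAX5-G183V (limma adjusted p = 0.0112; -0.04 and -0.23 in the isolation batches). A second probe set gave -0.18, -0.20 and -0.19. The fall of 0.14 in PAX5-P80R had a limma adjusted p of 0.0440. Leaving out any 1 of 7 arrays ended that call, MIR replicates 4, 5 and 6 and PAX5-P80R replicates 1, 4, 5 and 6, with an adjusted p up to 0.111.

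Sec11c, a catalytic subunit outside the 50, was lower in PAX5-G183V as well, by -0.21 (limma adjusted p = 0.0113; -0.04 and -0.38 in the isolation batches), and did not pass in the other constructs against MIR. Spcs3 and Spcs2 rose. For Spcs3, which with the catalytic subunit forms the core of the complex, MIR arrays stood at 11.23, 11.34 and 11.49 (lowest, median, highest), PAX5-WT at 11.48, 11.50 and 11.58 and PAX5-G183V at 11.46, 11.51 and 11.68. MIR touches the lower edge of both groups with its highest array. Spcs3 rose by 0.18 in PAX5-WT (limma adjusted p = 0.000221), by 0.17 in PAX5-G183V (limma adjusted p = 0.000311; 0.18 and 0.17 in the isolation batches), by 0.15 in PAX5-P80R (limma adjusted p = 0.00745; 0.15 and 0.16) and by 0.12 in PAX5-G183S (limma adjusted p = 0.0153). The PAX5-G183S call ended without PAX5-G183S replicate 1, at an adjusted p of 0.0509. Spcs2, an accessory subunit named after its values were seen, was called only in PAX5-G183V among the comparisons with MIR. Its PAX5-G183V arrays, at 11.75, 11.77 and 11.81, lay above all MIR arrays, at 11.59, 11.64 and 11.69, a rise of 0.15 (limma adjusted p = 0.000690; 0.12 and 0.16 in the isolation batches). A second probe set of Spcs2 rose by 0.17. Against PAX5-WT the PAX5-G183V change of Spcs2 was 0.07 and did not pass the test (limma adjusted p = 0.305).

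**Figure D2:**
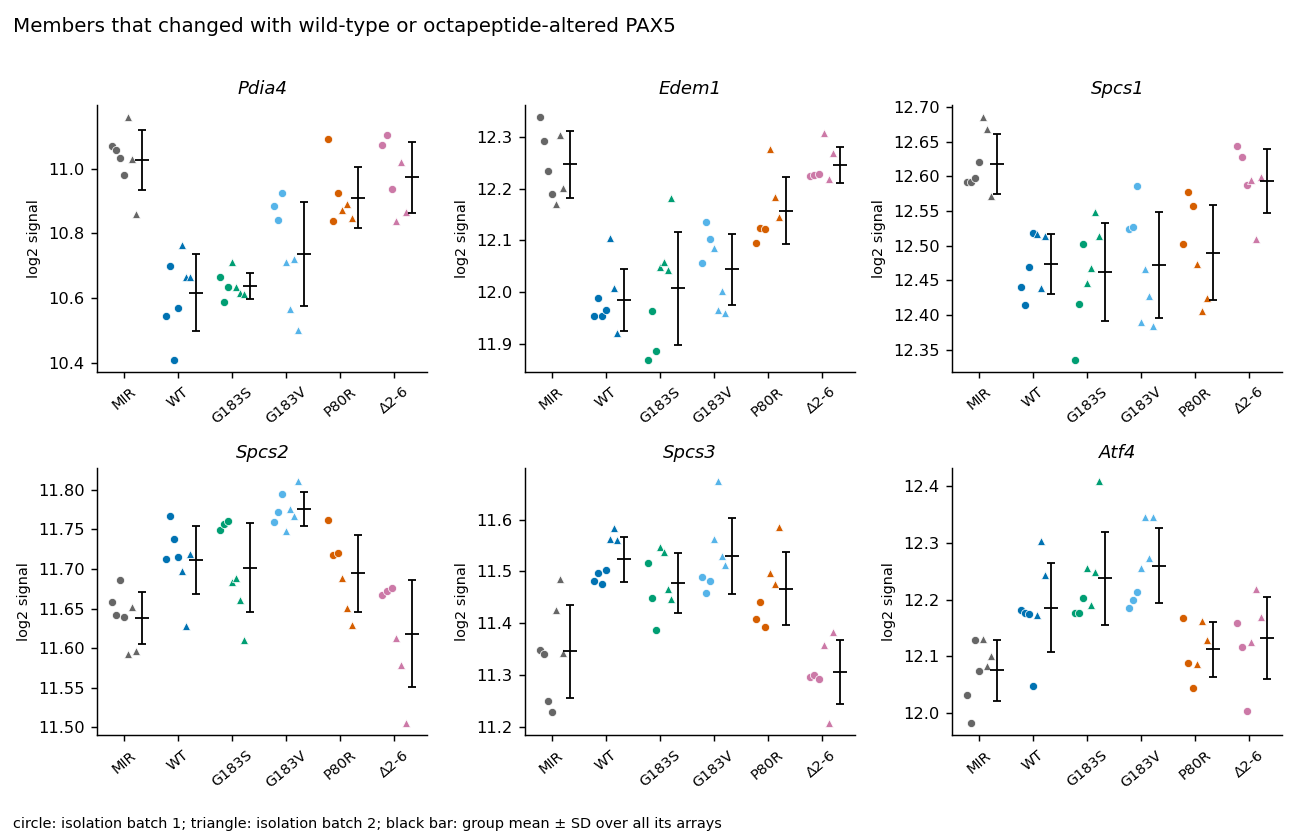
Log2 signal of 6 members in each of the 40 arrays, by construct, with the isolation batch as the symbol and the mean ± SD beside each group; the panels have different scales. Pdia4, Edem1 and Spcs1 are lower, and Spcs3 and Atf4 higher, in PAX5-G183S and PAX5-G183V than in MIR, and PAX5-Δ2-6 lies near MIR in each panel.

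Members whose groups do not overlap were few. They were 3 members in PAX5-WT against MIR (Pdia4, Edem1 and Spcs1), where 2.24% of all genes did not overlap. PAX5-G183S had 3 (Pdia4, Spcs1 and Atf4) beside 2.04% of all genes, PAX5-G183V 3 (Edem1, Spcs2 and Atf4) beside 2.70%, and PAX5-P80R 1 (Sec23b) beside 2.15%.

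Of the sensors and factors only Atf4 was called against MIR. ATF4 is the factor whose translation rises when PERK or a related kinase is active. Its MIR arrays stood at 11.98, 12.08 and 12.13 (lowest, median, highest), PAX5-G183S at 12.18, 12.20 and 12.41 and PAX5-G183V at 12.19, 12.26 and 12.35, with no overlap. The rise was 0.15 in PAX5-G183S (limma adjusted p = 0.00591) and 0.17 in PAX5-G183V (limma adjusted p = 0.00116; 0.15 and 0.20 in the isolation batches). The PAX5-WT arrays, at 12.05, 12.18 and 12.30, gave 0.11 and did not pass (limma adjusted p = 0.0611). The changes of PAX5-G183S and PAX5-G183V against PAX5-WT, 0.04 and 0.06 with an SE of 0.04, did not pass either. PAX5-P80R and PAX5-Δ2-6 gave 0.02 and 0.04 against MIR.

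The 3 sensors were not called against MIR in any construct. For Atf6 the changes against MIR ran from -0.14 in PAX5-P80R to 0.21 in PAX5-G183S (limma adjusted p = 0.0792 in the latter). For Ern1 they ran from 0.02 to 0.10 and for Eif2ak3 from -0.02 to 0.09. Atf6 in MIR spanned 7.60 to 8.43, the widest of the 3 sensors in that group. Hspa5, the chaperone BiP that holds the sensors inactive, stayed in a narrow band. Its lowest and highest arrays were 12.45 and 12.63 in MIR, 12.44 and 12.63 in PAX5-WT, 12.41 and 12.59 in PAX5-G183S, 12.52 and 12.61 in PAX5-G183V, 12.45 and 12.62 in PAX5-P80R and 12.41 and 12.63 in PAX5-Δ2-6. Its 5 changes against MIR lay between -0.02 and 0.04 with an SE of 0.04. Ddit3, the pro-apoptotic factor CHOP that acts downstream of ATF4, changed by -0.20 to 0.12 with limma adjusted p values of 0.480 or more. Trib3, a pseudokinase induced by ATF4 and named after its values were seen, gave the largest estimates of all members. They were 0.52 ± 0.21 in PAX5-WT, 0.64 ± 0.21 in PAX5-G183S and 0.44 ± 0.21 in PAX5-G183V (SE, n = 7 and 7), and did not pass the limma test (adjusted p = 0.161, 0.0617 and 0.210). In the 2 isolation batches Trib3 gave 0.51 and 0.53 in PAX5-WT, 0.26 and 0.86 in PAX5-G183S and 0.58 and 0.26 in PAX5-G183V.

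One array stood apart in these genes. PAX5-G183S replicate 7 had the highest signal of all 40 arrays in 11 of 49 members and the lowest in 4. No other array was highest in more than 7. How often this array was highest or lowest over all genes is not given, so the count is not read as particular to the members. It read 7.27 for Trib3 where the other PAX5-G183S arrays read 5.00 to 5.60, 6.91 for Ddit3 against 6.01 to 6.30, 8.56 for Ern1 against 7.83 to 8.06, and 12.41 for Atf4 against 12.18 to 12.26. Herpud1, a degradation factor induced by ER stress and named after its values were seen, read 12.10 against 11.38 to 11.61. Hspa5 at 12.48 and Dnajb9 at 9.78 lay inside the range of the other PAX5-G183S arrays. Without that array the Trib3 estimate in PAX5-G183S against MIR was 0.35 ± 0.13 (SE, n = 6 and 7, limma adjusted p = 0.113) in place of 0.64. Atf4 remained called in PAX5-G183S without it, at 0.13 (limma adjusted p = 0.0193), and 6 of 49 members were called in place of 8.

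**Figure D3:**
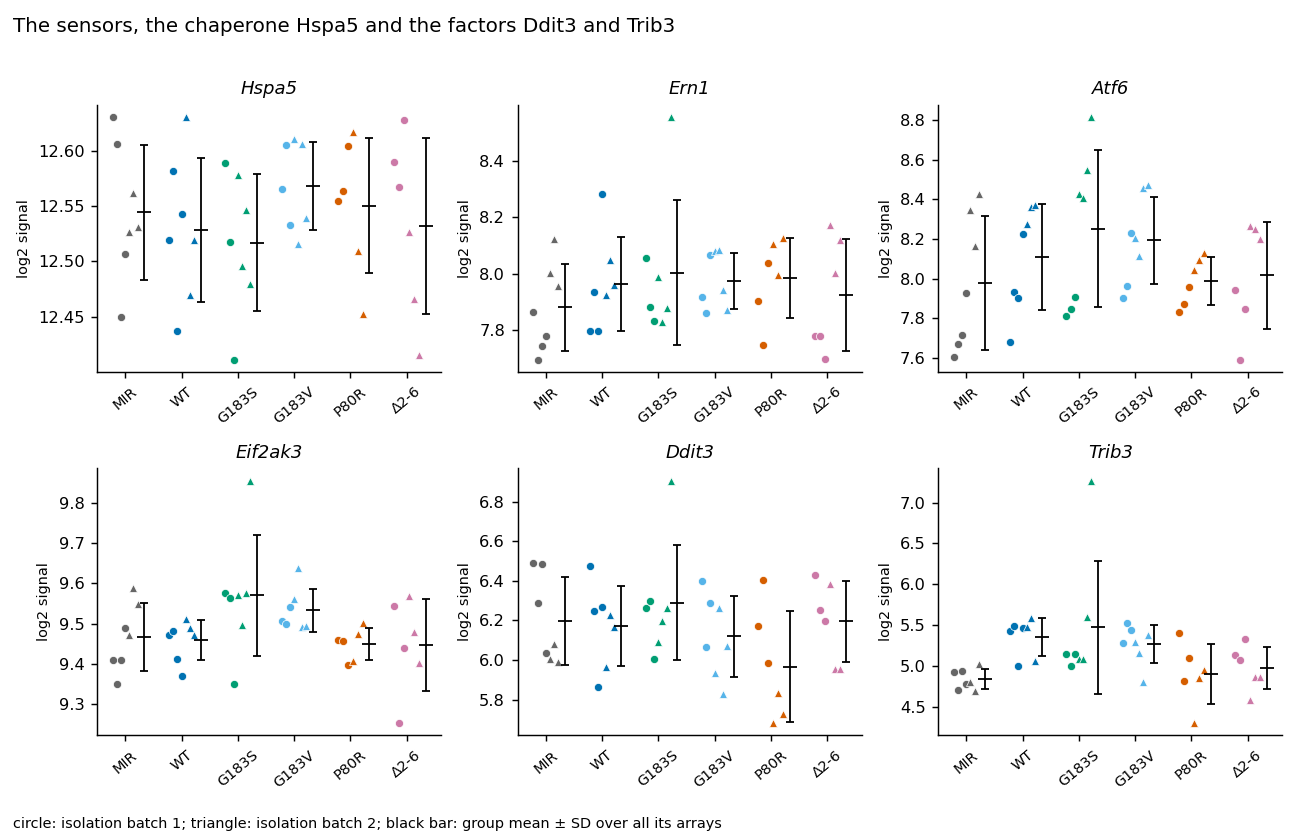
Log2 signal of Hspa5, the sensors Ern1, Atf6 and Eif2ak3, and the factors Ddit3 and Trib3 in each array, by construct, with the isolation batch as the symbol and the mean ± SD beside each group; the panels have different scales. PAX5-G183S replicate 7 is the highest PAX5-G183S array in every panel but that of Hspa5, where all groups overlap.

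Among the chaperones the calls were few and small. Hyou1, a large nucleotide exchange factor for BiP, had PAX5-G183V arrays at 9.70, 9.80 and 9.87 (lowest, median, highest) against MIR arrays at 9.46, 9.61 and 9.74. It rose by 0.20 (limma adjusted p = 0.00134; 0.21 and 0.17 in the isolation batches), and its other 2 probe sets rose by 0.26 and 0.55. The change of 0.13 against PAX5-WT did not pass (limma adjusted p = 0.197). Dnajb9, a BiP co-chaperone that represses IRE1, fell by 0.16 in PAX5-WT, 0.17 in PAX5-G183S and 0.17 in PAX5-G183V (limma adjusted p = 0.0382, 0.0222 and 0.0173). In PAX5-G183V the Dnajb9 change was -0.09 and -0.26 in the isolation batches. These calls ended without any 1 of 8, 5 and 2 arrays in turn, among them MIR replicate 6 in each, with adjusted p values up to 0.101, 0.0693 and 0.0570. The Dnajb9 groups overlap, with MIR from 9.66 to 10.22 and PAX5-WT from 9.51 to 10.05. Dnajb11 and Creld2, given above for PAX5-G183S, each lost the call without any 1 of 10 of the 14 arrays, PAX5-G183S replicate 7 among them. Their limma adjusted p values were 0.0482 and 0.0417, and reached 0.162 and 0.126. Dnajc10, an ER reductase named after its values were seen, fell by 0.12 in PAX5-G183V (limma adjusted p = 0.0274; -0.11 and -0.14 in the isolation batches), a call that ended without MIR replicate 5 or 6 or PAX5-G183V replicate 7, with an adjusted p up to 0.0734. The remaining chaperones, Hsp90b1, Dnajc3, Sdf2l1 and Manf, and the lectin cycle genes Calr, Canx and Uggt1, were not called against MIR in any construct.

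SEC62 and SEC63 sit beside the SEC61 channel and serve proteins that enter the ER after translation. Sec63 fell by 0.21 in PAX5-G183V (limma adjusted p = 0.0255; -0.11 and -0.31 in the isolation batches), from MIR arrays at 8.91, 9.05 and 9.19 to 8.44, 8.85 and 9.06. The call ended without MIR replicate 6, PAX5-G183V replicate 5 or PAX5-G183V replicate 6, with an adjusted p up to 0.0873. Sec62 fell by 0.14 in PAX5-WT, 0.14 in PAX5-G183V and 0.20 in PAX5-P80R (limma adjusted p = 0.0487, 0.0369 and 0.0119). Without 1 of 12, 7 and 1 arrays in turn these calls ended, PAX5-P80R replicate 6 in the last case, with adjusted p values up to 0.128, 0.109 and 0.0522. The Sec62 change was -0.12 and -0.20 in the isolation batches in PAX5-G183V, and -0.10 and -0.33 in PAX5-P80R.

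PAX5-WT, PAX5-G183S and PAX5-G183V were compared directly, to see whether the octapeptide changes alter what wild-type PAX5 does to these genes. In PAX5-G183S against PAX5-WT 0 of 49 members were called by limma, with 1 at an unadjusted p under 0.05, beside 0.0760% of all genes. In PAX5-G183V against PAX5-WT 0 were called, with 5 at an unadjusted p under 0.05, beside 0.146% of all genes. A p that misses the threshold does not show equal levels. For Pdia4 the differences were 0.03 ± 0.06 for PAX5-G183S and 0.13 ± 0.06 for PAX5-G183V, with 0.32 and -0.06 for the latter in the 2 isolation batches. For Edem1 they were 0.02 ± 0.04 and 0.05 ± 0.04. For Sec23b the PAX5-G183V difference was 0.14 ± 0.04 (limma adjusted p = 0.154).

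PAX5-P80R was compared with PAX5-WT to see where the paired domain change departs from wild type. Here 9 of 49 members were called, 7 higher and 2 lower, or 18.4%, beside 6.31% of all genes (2.67% higher and 3.63% lower). The groups did not overlap in 3 members (Pdia4, Sec61a1 and Sec23b), beside 2.17% of all genes. Pdia4 was higher by 0.34 (limma adjusted p = 0.000357; 0.42 and 0.23 in the isolation batches) and Edem1 by 0.19 (limma adjusted p = 0.00954; 0.17 and 0.21). The second Edem1 probe set gave 0.41. For both genes the PAX5-P80R level lay near MIR, as given above. With arrays centred on their medians the split was 8 higher and 0 lower, and with quantile normalization applied again 6 higher and 3 lower. When the 4 number series replaced isolation batch as a term, 0 members were called, with 4 at an unadjusted p under 0.05. With 3 number series the split turned to 3 higher and 7 lower. It was 5 higher and 0 lower in the first isolation batch alone, where 2.85% of all genes were called. In the second it was 1 higher and 2 lower, beside 4.31%. Shares of all genes under the other alternatives are not given.

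Of the 4 members higher in PAX5-P80R than in MIR, 2 were export genes and 2 were genes of translocation and signal cleavage. Sec23b and Sec24d belong to the inner COPII coat that buds vesicles from the ER. Sec23b arrays of PAX5-P80R, at 10.60, 10.66 and 10.70 (lowest, median, highest), lay above all MIR arrays, at 10.35, 10.49 and 10.54, and above all PAX5-WT arrays, at 10.31, 10.44 and 10.50. It rose by 0.21 against MIR (limma adjusted p = 0.00317; 0.15 and 0.32 in the isolation batches) and by 0.24 against PAX5-WT (limma adjusted p = 0.000563; 0.20 and 0.31). The latter call held within each isolation batch. Against PAX5-Δ2-6, at 10.49, 10.56 and 10.61, the change of Sec23b was 0.10 and did not pass (limma adjusted p = 0.343).

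The Sec24d level in MIR differed between the isolation batches. Its MIR arrays read 8.77 to 8.85 in the first batch and 9.28 to 9.38 in the second, where PAX5-P80R spanned 9.17 to 9.42 over both. The change against MIR was 0.27 (limma adjusted p = 0.0127), with 0.41 in the first batch and 0.08 in the second. By a limma interaction term over all arrays, the second batch minus the first was -0.40 ± 0.10. That difference did not pass (limma adjusted p = 0.0596). Against PAX5-Δ2-6, at 8.79, 9.01 and 9.13, the Sec24d change was 0.32 (limma adjusted p = 0.00199), with 0.34 and 0.29, and those groups do not overlap. The difference of 0.21 from PAX5-WT (limma adjusted p = 0.0486) ended without any 1 of 11 of 13 arrays, with an adjusted p up to 0.110; PAX5-WT replicate 6 and PAX5-P80R replicate 4 were the exceptions.

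Sec61a1, the pore of the translocon, had PAX5-P80R arrays at 11.49, 11.55 and 11.67 (lowest, median, highest), all above PAX5-WT at 11.31, 11.39 and 11.47. The change was 0.21 against PAX5-WT (limma adjusted p = 0.00228; 0.21 in each isolation batch) and 0.18 against MIR (limma adjusted p = 0.0141; 0.19 and 0.16). The 3 further probe sets gave 0.15, 0.29 and 0.32 against PAX5-WT, the first of them not called. Ssr2, a subunit of the translocon-associated complex, rose by 0.24 against PAX5-WT (limma adjusted p = 0.00724; 0.22 and 0.24 in the isolation batches). Its PAX5-P80R arrays stood at 10.61, 10.75 and 10.85 and its PAX5-WT arrays at 10.36, 10.56 and 10.71, which overlap. Against MIR the Ssr2 change was 0.19 and did not pass (limma adjusted p = 0.0577). Sec61b and the other Ssr genes were not called in PAX5-P80R against MIR or PAX5-WT.

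The 2 lower members were Atf6 and P4hb. Atf6 was lower in PAX5-P80R than in PAX5-WT by -0.27 (limma adjusted p = 0.0363; -0.15 and -0.39 in the isolation batches), while its second probe set gave 0.01. That call ended without PAX5-WT replicate 2, 4 or 6 or PAX5-P80R replicate 4, 5 or 6, with an adjusted p up to 0.122. P4hb, a disulfide isomerase named after its values were seen, changed by -0.20 (limma adjusted p = 0.0425; -0.28 and -0.14 in the isolation batches). The P4hb call ended without any 1 of 9 of 13 arrays, with an adjusted p up to 0.123. Dnajb9, higher by 0.18 (limma adjusted p = 0.0278; 0.21 and 0.15), lost its call without PAX5-WT replicate 3 or 7 or PAX5-P80R replicate 2, 3 or 4, with an adjusted p up to 0.0756.

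**Figure D4:**
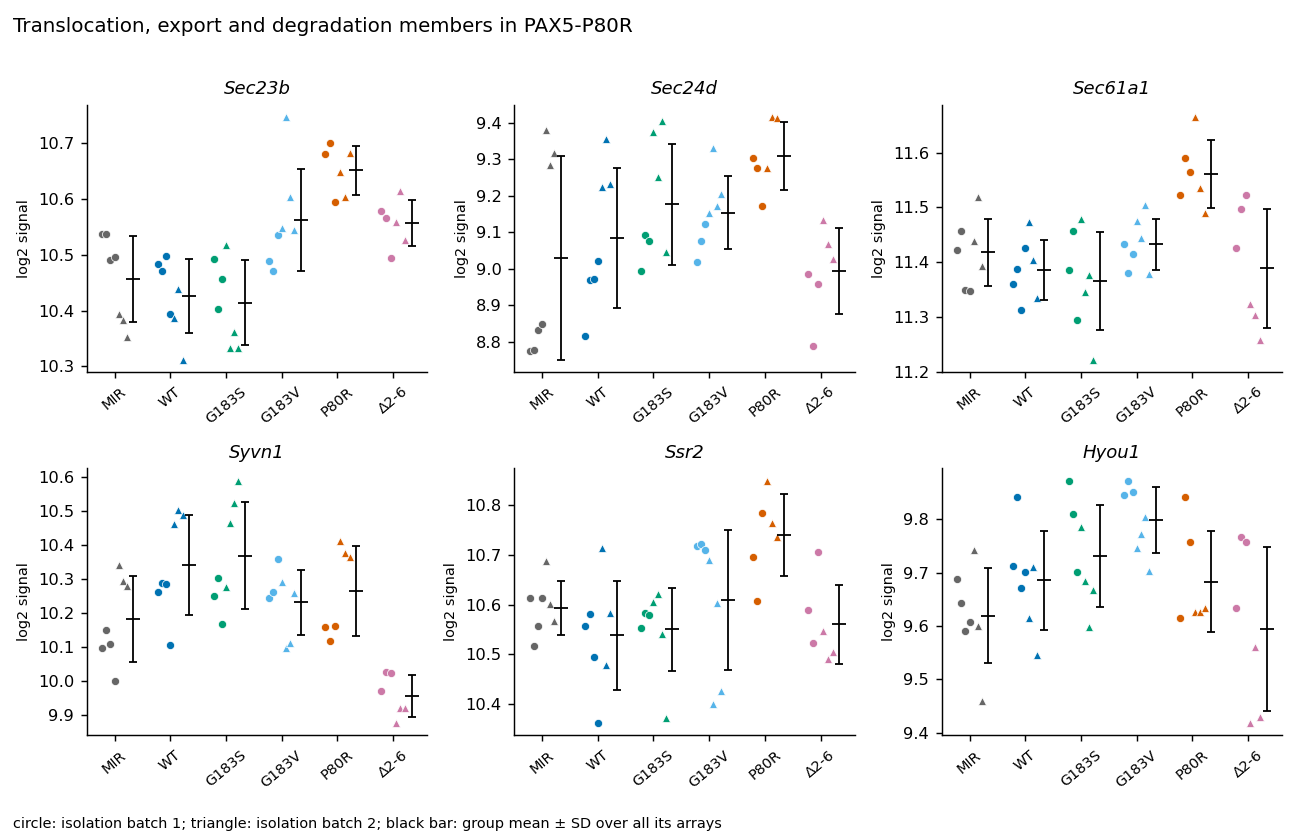
Log2 signal of 6 members in each array, by construct, with the isolation batch as the symbol and the mean ± SD beside each group; the panels have different scales. PAX5-P80R has the highest mean for Sec23b and Sec61a1, PAX5-Δ2-6 the lowest mean for Syvn1, and Sec24d in MIR splits by isolation batch.

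PAX5-Δ2-6 was also set against PAX5-G183V and PAX5-P80R, which share its transduction number series. In PAX5-G183V against PAX5-Δ2-6 8 members were called, 5 higher and 3 lower, or 16.3%, beside 4.98% of all genes (3.35% higher and 1.64% lower). The count fell to 5 without PAX5-Δ2-6 replicate 4 or PAX5-G183V replicate 7. With arrays centred on their medians the split turned to 3 higher and 5 lower, and with quantile normalization applied again it was 5 higher and 2 lower. In the second isolation batch alone it was 1 higher and 2 lower, beside 3.19% of all genes called. Shares of all genes under the other alternatives are not given. Pdia4 differed by -0.28 (limma adjusted p = 0.00419; -0.18 and -0.33 in the isolation batches), Edem1 by -0.22 (limma adjusted p = 0.00205; -0.15 and -0.28), Spcs2 by 0.16 (limma adjusted p = 0.000971; 0.11 and 0.21) and Spcs3 by 0.18 (limma adjusted p = 0.000971; 0.15 and 0.21). These signs are those seen against MIR. Atf4 at 0.14, Hyou1 at 0.16 and Edem3 at -0.15 (limma adjusted p = 0.0373, 0.0310 and 0.0415) lost their calls without any 1 of 5, 6 and 9 arrays, PAX5-Δ2-6 replicates 4 and 6 and PAX5-G183V replicate 7 in each case, with adjusted p values up to 0.0952, 0.111 and 0.120. Edem1, Spcs2, Spcs3 and Syvn1 did not overlap, 4 members beside 2.89% of all genes.

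In PAX5-P80R against PAX5-Δ2-6 4 members were called, all 4 higher, or 8.16%, beside 3.30% of all genes (1.95% higher and 1.36% lower). Besides Sec24d these were Syvn1, Spcs3 and Sec61a1. Spcs3 was higher by 0.16 (limma adjusted p = 0.00364; 0.12 and 0.20 in the isolation batches). Sec61a1 was higher by 0.17 (limma adjusted p = 0.0191; 0.08 and 0.27), a call that ended without PAX5-P80R replicate 4 or PAX5-Δ2-6 replicate 4, 5 or 6, with an adjusted p up to 0.0803. The groups did not overlap in 5 of 49 members (Edem2, Syvn1, Sec61b, Spcs3 and Sec24d), beside 1.99% of all genes. Edem2, at 0.21, and Sec61b, at 0.10, did not pass the test (limma adjusted p = 0.141 and 0.349).

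Syvn1, the ubiquitin ligase HRD1 at the centre of ER-associated degradation, was the member in which PAX5-Δ2-6 itself was low. Its PAX5-Δ2-6 arrays stood at 9.87, 9.94 and 10.02 (lowest, median, highest), below all arrays of PAX5-G183V (10.10, 10.26 and 10.36) and PAX5-P80R (10.12, 10.26 and 10.41). PAX5-P80R was higher by 0.31 (limma adjusted p = 0.00216; 0.14 and 0.48 in the isolation batches) and PAX5-G183V by 0.26 (limma adjusted p = 0.0139; 0.25 and 0.31). The PAX5-G183V call ended without PAX5-G183V replicate 3, at an adjusted p of 0.0698. A second probe set gave 0.27 in each comparison. Against MIR, with a median of 10.15 and a highest array of 10.34, the PAX5-Δ2-6 change was -0.23 ± 0.07 and did not pass (SE, n = 6 and 7, limma adjusted p = 0.436), with -0.06 and -0.43 in the isolation batches.

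The change within an isolation batch differed from the other batch in 2 members. Derl1, part of the channel through which failed proteins leave the ER, changed in PAX5-G183V against MIR by 0.08 in the first batch and by -0.26 in the second, a difference of -0.33 ± 0.07 (limma adjusted p = 0.0184). Sec61b, a small subunit of the translocon, changed by 0.17 and -0.11, a difference of -0.28 ± 0.07 (limma adjusted p = 0.0398). Summed over all constructs, the count of 2 was 14 without dim genes and 15 with a trend and robust fit. It was 4 with the mean of a gene's probe sets or with quantile normalization applied again, and 1 with arrays centred. Shares of all genes under those settings are not given. With the settings that gave 2, 1.04% of all genes passed this test in PAX5-G183V. In the other constructs 0 members passed it, beside 0.0292% of all genes in PAX5-WT, 0% in PAX5-G183S, 0.696% in PAX5-P80R and 0.211% in PAX5-Δ2-6. At an unadjusted p under 0.05 the limma term took in 20 of 49 members in PAX5-G183V, 12 in PAX5-Δ2-6, 9 in PAX5-P80R, 3 in PAX5-G183S and 1 in PAX5-WT. The shares of all genes at that unadjusted threshold are not given, so these counts are not read as particular to the members. The first isolation batch held transductions 1 to 44 and the second 45 to 66, so isolation batch and transduction number cannot be told apart. Within the batches, 5 members were called in PAX5-WT against MIR in the first batch (4.74% of all genes) and 0 in the second (1.34% of all genes), with 8 at an unadjusted p under 0.05. In PAX5-G183V the counts were 2 (1.77% of all genes) and 7 (8.17% of all genes).

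**Figure D5:**
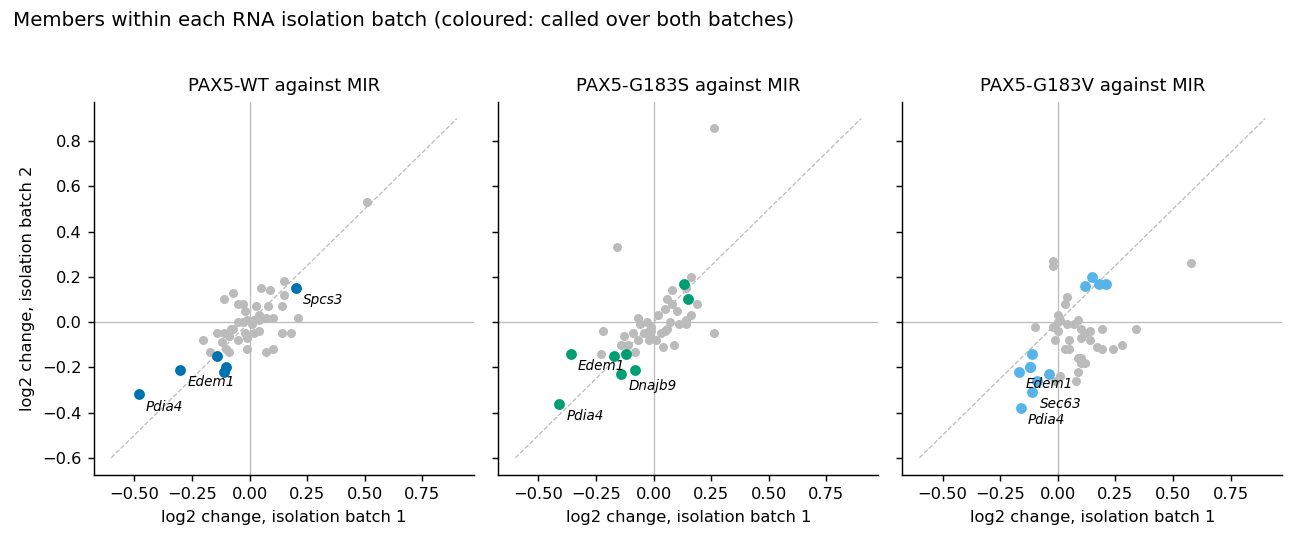
Change of each member against MIR on the log2 scale in isolation batch 1 (horizontal) and isolation batch 2 (vertical) for PAX5-WT, PAX5-G183S and PAX5-G183V, with members called over both batches in colour, the 3 largest of them named, and equal change on the dashed line. Pdia4 and Edem1 lie lower left of the origin in each panel, and no coloured member has opposite signs in the batches.

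The wider pathway was followed in lists of genes outside the 50. For these counts, the shares of all genes called against MIR were 3.59% higher and 2.84% lower in PAX5-WT, 3.69% and 2.43% in PAX5-G183S, 5.63% and 3.64% in PAX5-G183V and 2.25% and 2.47% in PAX5-P80R. Of 52 calls over these lists in all comparisons, 31 held without any 1 array. Of 13 further genes of unfolded protein response signalling, 3 were lower and 0 higher in PAX5-WT, 2 lower and 1 higher in PAX5-G183S, 1 lower in PAX5-G183V and 1 lower in PAX5-P80R against MIR. Xbp1, which is also among the plasma cell markers and whose spliced form encodes the factor that drives the secretory programme, had MIR arrays at 13.20, 13.31 and 13.38 (lowest, median, highest), PAX5-WT arrays at 13.07, 13.17 and 13.26, PAX5-G183S arrays at 13.05, 13.13 and 13.21 and PAX5-G183V arrays at 13.03, 13.16 and 13.24. The groups overlap at their edges. Xbp1 fell by 0.14 in PAX5-WT (limma adjusted p = 0.0113), by 0.16 in PAX5-G183S (limma adjusted p = 0.00370) and by 0.15 in PAX5-G183V (limma adjusted p = 0.00522; -0.07 and -0.21 in the isolation batches). It was higher by 0.20 in PAX5-P80R than in PAX5-WT (limma adjusted p = 0.000818; 0.19 and 0.21). These 4 Xbp1 calls held without any 1 array. The signal used here is that of 1 probe set and does not tell the spliced from the unspliced form.

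The other calls of that list against MIR each ended without some arrays. Creb3, a membrane-bound factor, fell by 0.17 in PAX5-WT (limma adjusted p = 0.0216) and by 0.16 in PAX5-G183S (limma adjusted p = 0.0394), calls that ended without any 1 of 4 and of 9 arrays, with adjusted p values up to 0.0596 and 0.115. Mbtps1 and Mbtps2 encode the proteases that cut ATF6. Mbtps1 fell by 0.13 in PAX5-WT (limma adjusted p = 0.0482), a call lost without any 1 of 12 of the 14 arrays, with an adjusted p up to 0.147. Mbtps2 rose by 0.18 in PAX5-G183S (limma adjusted p = 0.0387), a call lost without any 1 of 8 arrays, with an adjusted p up to 0.107. Crebrf fell by 0.25 in PAX5-P80R (limma adjusted p = 0.0487; -0.12 and -0.39 in the isolation batches), a call lost without any 1 of 11 of 13 arrays, with an adjusted p up to 0.171.

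Of 16 measured genes of ER folding outside the 50, 2 were lower and 0 higher in PAX5-WT, 1 lower in PAX5-G183S, 3 lower and 1 higher in PAX5-G183V, and 1 higher in PAX5-P80R. Ero1a, the oxidase that recharges the disulfide isomerases, had MIR arrays at 12.13, 12.29 and 12.36 (lowest, median, highest) and PAX5-WT arrays at 11.78, 11.94 and 12.07, with no overlap. Ero1a fell by 0.32 in PAX5-WT (limma adjusted p = 4.09e-05) and by 0.20 in PAX5-G183V (limma adjusted p = 0.00963; -0.12 and -0.25 in the isolation batches). It was higher by 0.28 in PAX5-P80R than in PAX5-WT (limma adjusted p = 0.00142; 0.29 and 0.28). Its fall of 0.18 in PAX5-G183S (limma adjusted p = 0.0258) ended without MIR replicate 1 or PAX5-G183S replicate 1, 2 or 3, with an adjusted p up to 0.0850. Sil1, a nucleotide exchange factor for BiP, fell by 0.37 in PAX5-G183V (limma adjusted p = 0.00794), with -0.07 in the first isolation batch and -0.68 in the second, from MIR arrays at 8.08, 8.23 and 8.92 to 8.03, 8.14 and 8.36. Those groups overlap over most of their range. Ppic, a proline isomerase, fell by 0.39 in PAX5-G183V (limma adjusted p = 0.0211), with -0.29 and -0.48 in the isolation batches. The Ppic call ended without MIR replicate 5 or 6, with an adjusted p up to 0.0788. Its signal was dim, at 3.57, 4.02 and 4.29 (lowest, median, highest) in MIR and 3.44, 3.56 and 3.79 in PAX5-G183V. These values lie near or below the arrays' medians of 4.21 to 4.27. Txndc11, a thioredoxin-like gene, fell by 0.18 in PAX5-WT (limma adjusted p = 0.0198), a call that ended without MIR replicate 1, 2 or 4 or PAX5-WT replicate 4, with an adjusted p up to 0.0676.

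Fkbp11, a proline isomerase of secretory cells, rose by 0.33 in PAX5-P80R (limma adjusted p = 0.000378; 0.22 and 0.43 in the isolation batches) and by 0.21 in PAX5-G183V (limma adjusted p = 0.00849; 0.21 in each) against MIR. Its PAX5-P80R arrays stood at 10.46, 10.63 and 10.81 and its MIR arrays at 10.18, 10.36 and 10.41. Against PAX5-Δ2-6, at 10.28, 10.32 and 10.41, the Fkbp11 difference was 0.31 (limma adjusted p = 0.000569; 0.24 and 0.38). In PAX5-P80R against PAX5-WT 5 genes of the folding list were higher and 1 lower, beside 2.67% and 3.63% of all genes. With Ero1a these included Txndc11 at 0.26 (limma adjusted p = 0.00174; 0.26 and 0.24) and Fkbp11 at 0.24 (limma adjusted p = 0.00719; 0.09 and 0.41).

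Of 9 measured genes of ER degradation outside the 50, 2 were lower in PAX5-WT, and 1 was lower in PAX5-G183S and in PAX5-G183V. In PAX5-P80R 1 was higher. Ube2j1, a ubiquitin-conjugating enzyme of the ER membrane, fell by 0.20 in PAX5-WT (limma adjusted p = 0.00478) and by 0.24 in PAX5-G183S (limma adjusted p = 0.000863). Erlec1, a lectin of the ER, fell by 0.22 in PAX5-G183V (limma adjusted p = 0.00872; -0.07 and -0.36 in the isolation batches). Its fall of 0.18 in PAX5-WT (limma adjusted p = 0.0428) was lost without any 1 of 10 of the 14 arrays, with an adjusted p up to 0.101. Derl3, a Derlin of ER degradation, rose by 0.45 in PAX5-P80R against MIR (limma adjusted p = 0.0195; 0.54 and 0.30), a call that ended without MIR replicate 4 or PAX5-P80R replicate 3 or 6, with an adjusted p up to 0.0702. Against PAX5-Δ2-6 the Derl3 difference of 0.50 held without any 1 array (limma adjusted p = 0.00546; 0.44 and 0.57). Its PAX5-P80R arrays stood at 5.88, 6.34 and 6.57, MIR at 5.61, 5.74 and 6.13 and PAX5-Δ2-6 at 5.53, 5.75 and 5.94, and both overlap PAX5-P80R at the edge.

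Of 17 measured genes of targeting and glycosylation outside the 50, 1 was higher and 1 lower in PAX5-G183V against MIR. The lower gene was Sec11c, given above, and the higher was Srp14, a subunit of the signal recognition particle, at 0.10 (limma adjusted p = 0.0149; 0.09 and 0.10 in the isolation batches). Srprb, a subunit of that particle's receptor, was higher by 0.26 in PAX5-P80R than in PAX5-WT (limma adjusted p = 0.00608; 0.27 and 0.23), with PAX5-P80R at 8.71, 8.80 and 8.91 and PAX5-WT at 8.40, 8.53 and 8.77. Of 19 genes of ER to Golgi transport, 2 were lower in PAX5-WT and 1 in each octapeptide construct. Sec24a, another cargo adaptor of the COPII coat, fell by 0.25 in PAX5-WT (limma adjusted p = 0.00201) and by 0.22 in PAX5-G183S (limma adjusted p = 0.00738). The Sec24a call in PAX5-G183V, at -0.17 (limma adjusted p = 0.0475; -0.07 and -0.23), was lost without any 1 of 12 of the 14 arrays, with an adjusted p up to 0.108. Arf4, a small GTPase of Golgi traffic, fell by 0.17 in PAX5-WT (limma adjusted p = 0.00610) and was higher by 0.24 in PAX5-P80R than in PAX5-WT (limma adjusted p = 0.000393; 0.24 in each isolation batch).

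Further genes of these lists were called in comparisons without MIR. In PAX5-P80R against PAX5-WT, Sec24a was higher by 0.23 (limma adjusted p = 0.0152; 0.24 and 0.22 in the isolation batches) and Mbtps2 differed by -0.23 (limma adjusted p = 0.0142; -0.10 and -0.37). In the same comparison Derl3 at 0.40, Ube2j1 at 0.18 and Creb3 at 0.17 (limma adjusted p = 0.0314, 0.0389 and 0.0459) lost their calls without any 1 of 5, 8 and 10 of 13 arrays, with adjusted p values up to 0.0940, 0.119 and 0.144. In PAX5-G183V against PAX5-Δ2-6, Srp14 was higher by 0.13 (limma adjusted p = 0.0110; 0.08 and 0.17). Xbp1 at -0.14 and Ero1a at -0.20 there (limma adjusted p = 0.0307 and 0.0338) each lost the call without any 1 of 6 arrays, with adjusted p values up to 0.106 and 0.114.

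Of 15 measured targets of the integrated stress response outside the 50, 0 were called in PAX5-WT, 1 was higher in PAX5-G183S and 2 were higher in PAX5-G183V, all by limma against MIR. The PAX5-G183V genes were Psat1 at 0.12 (limma adjusted p = 0.0124; 0.08 and 0.15 in the isolation batches) and Asns at 0.14 (limma adjusted p = 0.0483; 0.12 and 0.16), both of amino acid synthesis, and the Asns call ended without any 1 of 13 of the 14 arrays, with an adjusted p up to 0.118. The PAX5-G183S gene was Chac1, an ATF4 target that degrades glutathione, at 8.74, 8.87 and 9.08 (lowest, median, highest) in MIR and at 8.83, 9.41 and 11.10 in PAX5-G183S. It rose by 0.68 (limma adjusted p = 0.0116), and by 0.43 without PAX5-G183S replicate 7, the array at 11.10. In PAX5-P80R against PAX5-WT Chac1 differed by -0.73 (limma adjusted p = 0.0182; -0.36 and -1.19 in the isolation batches), and those groups, at 8.47 to 8.98 and 9.25 to 9.60, do not overlap. In PAX5-WT against MIR Chac1 gave 0.50 and did not pass (limma adjusted p = 0.0906), although those groups do not overlap either. Sesn2, a stress-induced target of ATF4, was lower by -0.46 in PAX5-P80R than in PAX5-Δ2-6 (limma adjusted p = 0.00470; -0.27 and -0.66) and by -0.39 in PAX5-G183V (limma adjusted p = 0.0252; -0.38 and -0.40). The latter call ended without PAX5-Δ2-6 replicate 1 or 6 or PAX5-G183V replicate 3 or 7, with an adjusted p up to 0.0935. Sesn2 arrays stood at 7.55, 7.70 and 7.86 (lowest, median, highest) in PAX5-Δ2-6 and at 7.10, 7.29 and 7.68 in MIR. PAX5-P80R, at 6.98, 7.20 and 7.67, and PAX5-G183V, at 7.12, 7.29 and 7.67, lay near MIR. Sesn2 was not called against MIR in any construct.

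Some of the plasma cell markers were lower with some of these constructs. Of 6 measured, 2 were lower in PAX5-WT and in PAX5-G183S, 4 in PAX5-G183V and 0 in PAX5-P80R and PAX5-Δ2-6 against MIR. Of all genes 2.84%, 2.43%, 3.64% and 2.47% were lower in the first 4 of these. Ly6c1 changed by -0.92, -0.95 and -0.80 (-0.61 and -0.92 in the isolation batches for PAX5-G183V), and Xbp1 is given above. The others in PAX5-G183V were Jchain at -0.63 (-0.10 and -1.08) and Tnfrsf17 at -0.38 (-0.05 and -0.66). Prdm1 and Irf4 were not called against MIR. In PAX5-P80R against PAX5-WT 3 of the 6 were higher and 0 lower, beside 2.67% and 3.63% of all genes. Besides Xbp1, given above, they were Ly6c1 at 0.67 (limma adjusted p = 7.03e-06, with 0.66 and 0.69 in the isolation batches) and Irf4 at 0.17 (limma adjusted p = 0.0347, with 0.28 and 0.04). Against PAX5-Δ2-6 2 were lower in PAX5-G183V and 1 in PAX5-P80R, beside 1.64% and 1.36% of all genes. The mean level of the 6 markers per array was 10.71 to 10.99 in MIR, 10.28 to 10.80 in PAX5-WT and 10.29 to 10.84 in PAX5-G183S. It was 10.43 to 10.62 in PAX5-G183V, 10.62 to 10.70 in PAX5-P80R and 10.67 to 10.97 in PAX5-Δ2-6. The part of these markers in the changes of the secretory genes was not tested. The fibroblast, myeloid and erythroid markers gave 0 calls against MIR in any construct, and the T cell markers gave 1, Cd8a in PAX5-G183V, at a mean of 3.74 against 4.00. Of the T cell list Cd3g alone was well above the array medians, at 7.93 to 8.74.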

How the data were processed

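Total RNA, extracted with Trizol per the labels, was measured on 40 Affymetrix arrays. The deposited values are log2 signals from RMA, as the submitters' processing notes name it without a version. RMA removes background, equalizes the arrays' distributions and summarizes probes, so a change common to most genes would be reduced. Of 45141 probe sets, 28898 name 1 gene in the platform annotation, 551 several and 15692 none; those naming several or none were left out. The probe set of highest mean stood for each of 17097 genes, and 29 of the 49 measured members had more than 1. The only probe set of Pdia3 was dim.

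One limma model (limma 3.58.1, R 4.3.3) was fitted to all genes and all 40 arrays, with construct, plate and isolation batch as terms. P-values were adjusted by Benjamini-Hochberg over all genes of a comparison, and an adjusted p under 0.05 was called. Changes are differences on the log2 scale with their SE. Precision depends on how many arrays a group has, on the spread of the gene and on how the groups share plates and batches. In PAX5-WT against MIR, with 7 arrays in each group, the SE was 0.03 for Spcs3 and 0.21 for Trib3. The closest pair of arrays had r = 0.9969 and no columns were identical. The fit was also run on simulated data. That run is not used here as evidence that calls of the sizes given above are reliable. Named in full were the sensors, Hspa5, Atf4 and Ddit3, up to 5 members of largest change among those called in each comparison, members called in the isolation batch test, and from each pathway list Xbp1 and up to 3 called genes of largest change in each comparison. The members and lists were chosen with earlier results of these data known. Alternatives changed the batch terms, the groups fitted, the scaling, the probe set rule and the filter on dim genes, or left out each array in turn.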

Additional observations from a re-analysis of the deposited data

Results flagged for a closer look

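Within groups, 126 sets of arrays (21 named members in 6 groups) were searched for an array far from the rest, and 5 were found, where chance gives about 1 in 20. All but 1 of them were PAX5-G183S replicate 7. It was the highest of its group for Ern1, at 8.56 against 7.83 to 8.06 in the others, for Atf4, at 12.41 against 12.18 to 12.26, and for Ddit3, at 6.91 against 6.01 to 6.30. For Ssr2 it was the lowest, at 10.37 against 10.54 to 10.62. PAX5-P80R replicate 1 was the highest for Pdia4, at 11.09 against 10.84 to 10.92.

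The change of PAX5-G183V against MIR differed between the isolation batches in 2 members by a limma interaction term. For Derl1 the second batch minus the first was -0.33 ± 0.07 (SE, adjusted p = 0.0184), and for Sec61b it was -0.28 ± 0.07 (adjusted p = 0.0398).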

How the results depend on the processing

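Counts of members called by limma moved as follows, with the number at an unadjusted p under 0.05 beside a count of 0. Shares of all genes under these settings are not given in this section. From these counts alone, a moved member count cannot be told from a move over all genes. In PAX5-WT against MIR (6) they were 0 (8) in isolation batch 2 alone, 3 on plate 1, 2 on plate 2, 11 with arrays centred and 10 without dim genes. In PAX5-G183S against MIR (8) they were 4 with no batch terms, 5 and 1 in isolation batches 1 and 2, 4 on plate 1, 0 (13) on plate 2, 4 with only the 2 groups fitted and 14 without dim genes. In PAX5-G183V against MIR (12) they were 2 and 7 in the isolation batches, 3 and 1 on the plates and 0 (10) with 4 transduction number series. In PAX5-P80R against MIR (6) they were 1 with no batch terms, 1 in isolation batch 1, and 0 on plate 2 (9), with 4 number series (5) and with only the 2 groups (10). In PAX5-Δ2-6 against MIR, and in PAX5-G183V against PAX5-WT, both 0, they were 1 in isolation batch 2 and 4 with 3 number series. In PAX5-P80R against PAX5-WT (9) they were 5 with no batch terms, 5 and 3 in the isolation batches, 2 on plate 2, 0 (4) with 4 number series and 2 with only the 2 groups. In PAX5-G183V against PAX5-Δ2-6 (8) they were 0 (11) and 3 in the isolation batches, 3 on plate 2 and 1 with only the 2 groups, and in PAX5-P80R against PAX5-Δ2-6 (4) they were 2 with no batch terms and 1 and 2 in the isolation batches. The counts of the isolation batch test are sums over all constructs. That test (2) gave 4 with the mean of all probe sets, 1 with arrays centred and 4 with quantile normalization again. It gave 14 without dim genes and 15 with a trend and robust fit. Fits to 1 batch or plate hold fewer arrays; the cause of the other moves was not tested. Leaving out 1 array gave 4 to 6, 5 to 8, 8 to 14, 4 to 7 and 0 to 0 against MIR in the order above, 0 to 0 for both octapeptide constructs and 6 to 9 for PAX5-P80R against PAX5-WT, and 5 to 8 and 3 to 5 against PAX5-Δ2-6. The isolation batch test was not run with arrays left out. With the replicate number as a block beside plate and isolation batch, the counts were 4, 8, 10, 0 (7) and 0 (2) against MIR, 0 (2), 0 (3) and 0 (8) against PAX5-WT, 1 and 4 against PAX5-Δ2-6 and 2 in the isolation batch test. Same-numbered arrays had correlations of -0.22 to 0.19 once batches were removed, in no comparison all over 0.1, so the numbers were not taken as a pairing; with only group means removed, all 7 pairs of PAX5-WT and MIR were at 0.16 or more. Of 53 member calls, 32 held without any 1 array, and 0 reversed under the 14 other settings. Many kept their sign but lost the call. That was so for 41 and 39 in isolation batches 1 and 2 alone, and for 42 on plate 2. It was 30 with only the 2 groups fitted and 28 with 4 number series or with the replicate block. It was 0 without dim genes or with a trend and robust fit.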
